A study of Sus scrofa with 8 samples.

Results

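Glutathione and thioredoxin are the main thiol couples that keep a cell's proteins and lipids reduced, and 9 of the genes that build, recycle and use them were followed in the back muscle of young pigs. They were chosen by name from a list of 10 glutathione, thioredoxin and NRF2 target symbols. In the table of 23235 genes 8 were found under their symbol, and TXN was found through the NCBI gene number in its description. HMOX1, the inducible heme oxygenase, was not analysed here. All 9 genes passed the filter on low values, a mean over the 8 libraries of at least 1 FPKM, a unit of read fragments scaled by gene length and library depth.

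Glutathione is built in sequence by glutamate-cysteine ligase, a dimer of the catalytic subunit GCLC and the modifier subunit GCLM, and by glutathione synthetase, GSS. Glutathione peroxidases spend it to remove peroxides, glutathione reductase (GSR) regenerates it with NADPH, and thioredoxin (TXN) with its reductase TXNRD1 does the parallel work on protein disulfides. NRF2, encoded by NFE2L2, is the transcription factor that raises many of these genes under oxidative stress, and KEAP1 marks it for degradation. Melatonin, the pineal hormone of darkness, is also studied as an antioxidant.

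Sequencing was of poly(A) RNA of a long back muscle, the longissimus dorsi, in weaned Duroc x Landrace x Yorkshire piglets. The melatonin group received 5 mg per kg body weight in saline by gavage once a day for 23 days, and the control group received the same volume of 10 mL of saline alone. The animals, 12 in all and 6 per group, were aged 28 days at the start and had 5 days to adapt. Both groups shared a basal diet and were gavaged in the morning while fasting. There were 4 melatonin and 4 control libraries. The labels give only a group and a replicate number, so each library was taken as a separate piglet and p-values measure the spread between these samples.

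Total counts ran from 53471667 to 60629098 per library, and each of the 9 genes had between 293 and 9522 counts in each library. Summed FPKM of 10 skeletal muscle fibre markers ran from 80057 to 102863 after melatonin and from 94511 to 111338 in controls. The libraries differed in markers of other tissue. Summed FPKM of 9 fibroblast markers reached 8503 in melatonin replicate 1 and 2545 in melatonin replicate 3. It was 669 in replicate 2 and 681 in replicate 4 of that group and 489 to 964 in controls. Much of the sum was collagen I. COL1A1 and COL1A2 measured 3457 and 3550 FPKM in melatonin replicate 1, and 913 and 908 in melatonin replicate 3. In such bulk RNA, fewer cells of a type and less RNA per cell cannot be told apart. Values are FPKM as deposited, with mean ± SD (n = 4 per group), and each fold change is a log2 ratio ± SE, melatonin over control, fitted to counts with edgeR's quasi-likelihood test.

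After 23 days of melatonin no gene of this set passed the test. Of the 9 genes, 0 had a Benjamini-Hochberg adjusted p under 0.05 in edgeR, as did 0% of the 9821 genes tested. Adjusted p values of the 9 ran from 0.453 to 0.894. DESeq2 also called 0 of the 9, against 0.662% of all genes (0.509% higher and 0.153% lower after melatonin). At an unadjusted p under 0.05 edgeR gave 2 of the 9, against 10.5% of all genes. GSR was the 1 on the lower side, where 3.84% of all genes lay, and GPX3 the 1 on the higher side, where 6.67% did.

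Apart from GPX3, fold changes of the set lay between -0.55 and -0.07. They were below 0 for 8 of the 9 genes, against 50.2% of all genes tested, although TXN and GCLM turned sign under some alternatives. The 1 gene above 0, as were 49.8% of all genes, was GPX3, the extracellular glutathione peroxidase. The median of the 9 was -0.16 on the log2 scale, against -0.0014 over all genes. The 95% intervals lay within a halving and a doubling for 7 of the 9, against 79.8% of all genes. Those 7 were GCLC, GCLM, GSS, TXN, TXNRD1, GPX1 and GPX4, with fold changes between -0.28 and -0.07. In FPKM the groups overlapped for all 9, and groups that do not overlap were seen in 2.20% of all genes (1.13% with melatonin higher and 1.07% with melatonin lower). They also overlapped for all 9 after division by the TMM factors, where 4.26% of all genes had groups apart (2.33% with melatonin higher and 1.92% with melatonin lower).

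**Figure D1:**
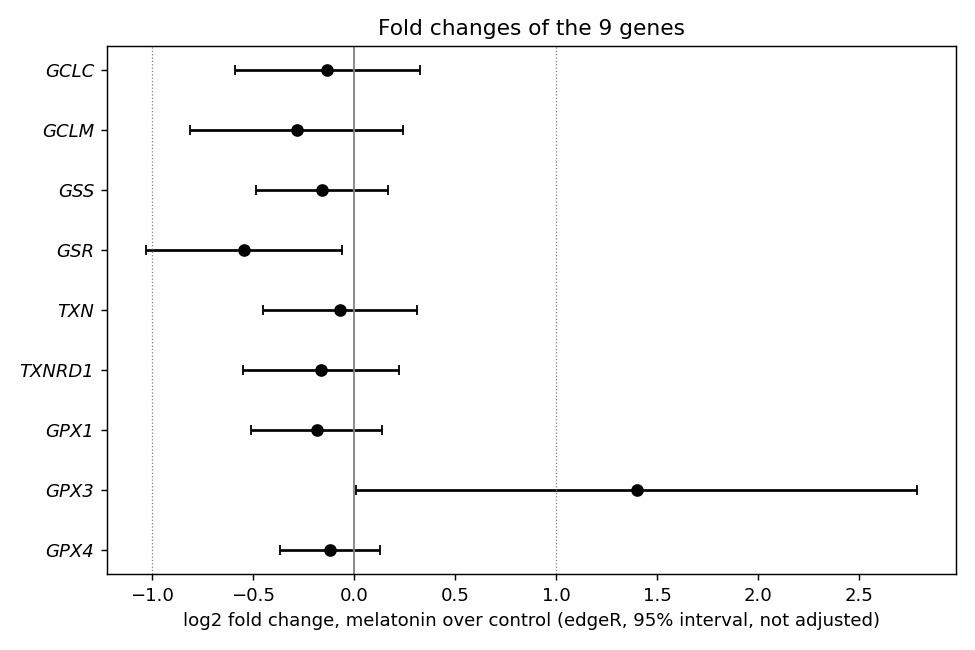
Log2 fold change of each of the 9 genes, melatonin over control, as points with the 95% interval from edgeR as bars. Dotted lines mark a halving and a doubling. GSR at -0.55 and GPX3 at 1.40 lie farthest from 0, and the other 7 lie between -0.28 and -0.07.

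In FPKM, a scale that divides by gene length, GPX1 was the most abundant of the set and GCLC and GSS were the least. GPX1, the cytosolic peroxidase, averaged 46.2 ± 13.6 FPKM after melatonin and 49.0 ± 6.34 in controls. GPX4, which reduces lipid peroxides within membranes, averaged 25.0 ± 3.16 after melatonin and 25.6 ± 3.17 in controls. GPX1 lay above GPX4 in 8 of 8 libraries, by 1.57 to 2.35 times. GCLM averaged 13.0 ± 2.16 FPKM after melatonin and 15.1 ± 6.42 in controls, and lay above TXN (10.0 ± 3.52 after melatonin and 9.68 ± 1.86 in controls) in 8 of 8 libraries. TXNRD1 averaged 5.58 after melatonin and 5.91 in controls, and lay above GSR in 8 of 8 libraries, by 1.36 to 3.02 times. GSR lay above GCLC, and GCLC above GSS, also in 8 of 8. GPX3 had no fixed place in this order: it was above GPX4 in 4 of 8 libraries. Over all libraries the FPKM ranges of GPX1 and GPX4 did not overlap, nor did those of GSR and GCLC. The ranges of the neighbours GCLM and TXN, of TXNRD1 and GSR and of GCLC and GSS overlapped.

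**Figure D2:**
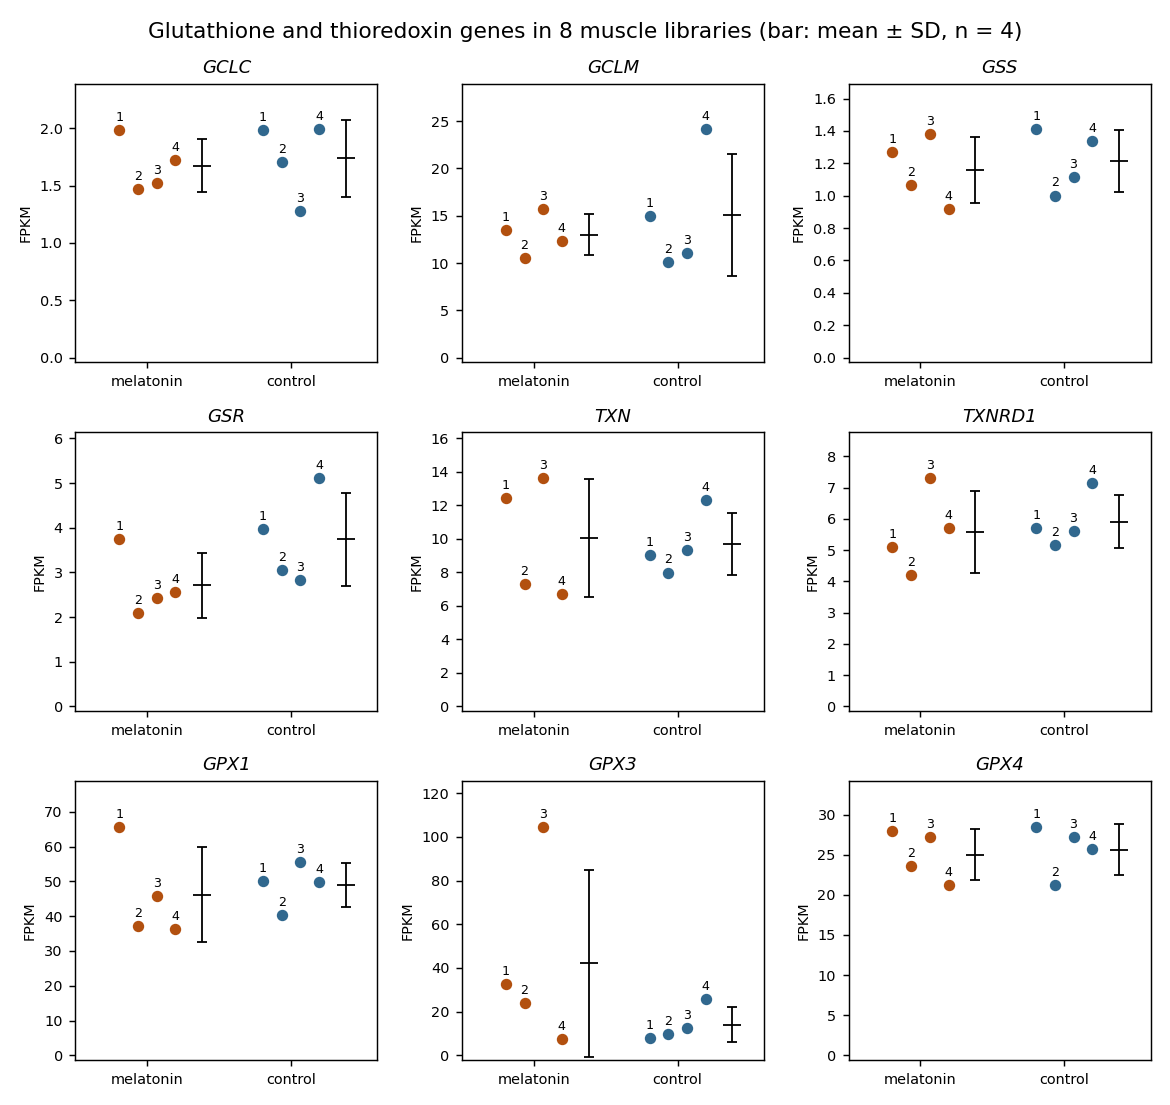
FPKM of the 9 genes in each library, with 1 panel per gene. Points are libraries numbered by replicate, melatonin on the left and control on the right, and the bar beside each group is the mean ± SD (n = 4). The groups overlap in all 9 panels, GPX3 has melatonin replicate 3 at 105 FPKM, and control replicate 4 is the highest control for GCLC, GCLM, GSR, TXN, TXNRD1 and GPX3.

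Among the synthesis enzymes, GCLC (ENSSSCG00000001488, Sscrofa11.1 chromosome 7, 27209565 to 27253529) measured 1.98, 1.47, 1.52 and 1.73 FPKM in melatonin replicates 1 to 4, against 1.98, 1.70, 1.27 and 1.99 in control replicates 1 to 4. The highest values of both groups were nearly equal, and the lowest of all was a control. Its log2 fold change was -0.13 ± 0.21, with a 95% interval of -0.59 to 0.33 (edgeR adjusted p = 0.827), and it ran from -0.26 without control replicate 3 to -0.03 without melatonin replicate 3. GCLM (ENSSSCG00000037549, chromosome 4, 123371193 to 123390131) measured 13.4, 10.5, 15.7 and 12.3 FPKM after melatonin, against 15.0, 10.1, 11.0 and 24.1 in controls. Control replicate 4 stood above all other libraries, and the remaining 3 controls spanned the melatonin range nearly in full. The log2 fold change of -0.28 ± 0.24 (edgeR adjusted p = 0.656) was 0.0046 without control replicate 4.

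Transcript of the modifier subunit exceeded that of the catalytic subunit in 8 of 8 libraries. The ratio of GCLM to GCLC in FPKM was 6.78, 7.14, 10.3 and 7.15 in melatonin libraries, against 7.58, 5.91, 8.65 and 12.1 in controls. The ratios overlapped and their highest value was control replicate 4. GSS (ENSSSCG00000007287, chromosome 17, 38312720 to 38342298) averaged 1.16 ± 0.206 FPKM after melatonin and 1.22 ± 0.191 in controls, with ranges of 0.917 to 1.38 and of 1.00 to 1.41 (log2 fold change -0.16 ± 0.15, edgeR adjusted p = 0.690). The gene shares its locus with ACSS2, an acetyl-CoA synthetase gene on the other strand with a mean of 23.3 FPKM. Whether strand was used in counting is not stated, so the GSS value is uncertain where both genes have exons, an overlap that was not measured.

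GSR is the reductase that turns oxidised glutathione back into the reduced form, and its fold change was the most negative of the set. The gene (ENSSSCG00000015844, chromosome 15, 54382567 to 54433984) measured 3.75, 2.10, 2.42 and 2.57 FPKM in melatonin replicates 1 to 4, against 3.97, 3.05, 2.83 and 5.11 in control replicates 1 to 4. The 3 lowest libraries were melatonin replicates 2, 3 and 4, and melatonin replicate 1 lay among the controls. Means were 2.71 ± 0.719 FPKM after melatonin and 3.74 ± 1.04 in controls.

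The log2 fold change of GSR was -0.55 ± 0.22, with a 95% interval of -1.03 to -0.06 (edgeR unadjusted p = 0.0309, adjusted p = 0.453). DESeq2 gave -0.55 with an adjusted p of 0.311, and adjusted p ran from 0.219 to 0.952 over the alternatives tried. With FPKM divided by the TMM factors, which correct for a few genes taking much of a library, GSR measured 3.16, 2.28, 2.04 and 2.97 after melatonin, against 3.90, 3.58, 2.81 and 5.01 in controls. On that scale all melatonin libraries lay below control replicates 1, 2 and 4, and control replicate 3 lay inside the melatonin range. Leaving out any of the 8 libraries in turn kept the fold change between -0.67 and -0.39, while the unadjusted p in edgeR exceeded 0.05 without melatonin replicate 2 or 3 or control replicate 1 or 4. The ratio of GSR to GCLC, 2 NRF2 targets, was 1.89, 1.43, 1.59 and 1.49 in melatonin replicates 1 to 4, against 2.00, 1.79, 2.22 and 2.57 in control replicates 1 to 4.

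TXN (ENSSSCG00000005453, chromosome 1, 251263175 to 251277550) measured 12.4, 7.30, 13.6 and 6.72 FPKM after melatonin, against 9.06, 7.99, 9.34 and 12.3 in controls. In FPKM, melatonin replicates 1 and 3 were above all controls and melatonin replicates 2 and 4 below all of them. With TMM factors applied, melatonin replicates 1 and 3 were at 10.5 and 11.5, below control replicate 4 at 12.1. Its log2 fold change was -0.07 ± 0.17, with an interval of -0.45 to 0.31 (edgeR adjusted p = 0.894), and its sign turned under 5 of the 19 alternatives. The ratio of TXN to TXNRD1 averaged 1.80 ± 0.517 after melatonin and 1.63 ± 0.0799 in controls. Melatonin libraries held both the highest ratio, 2.44, and the lowest, 1.18. TXNRD1 (ENSSSCG00000000843, chromosome 5, 80179635 to 80236219) ranged from 4.22 to 7.30 FPKM after melatonin and from 5.17 to 7.15 in controls (log2 fold change -0.16 ± 0.17, edgeR adjusted p = 0.728; -0.27 without melatonin replicate 4 and -0.07 without melatonin replicate 1).

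GPX1, GPX3, GPX4 and TXNRD1 are selenoproteins, which carry selenocysteine at the active site. GPX1 (ENSSSCG00000060656, chromosome 13, 31916246 to 31917433) measured 65.7, 37.1, 45.7 and 36.4 FPKM after melatonin, against 50.2, 40.4, 55.7 and 49.7 in controls. Melatonin replicate 1 was the highest library and melatonin replicates 2 and 4 were the lowest. The log2 fold change was -0.19 ± 0.15 (edgeR adjusted p = 0.635), and -0.32 without melatonin replicate 1 (edgeR unadjusted p = 0.0251, adjusted p = 0.548). GPX4 (ENSSSCG00000024052, chromosome 2, 77320464 to 77323931) ranged from 21.2 to 28.0 FPKM after melatonin and from 21.2 to 28.5 in controls. Its log2 fold change was -0.12 ± 0.11, with an interval of -0.37 to 0.13 (edgeR adjusted p = 0.693). Its spread within groups was lower than that of all but 0.468% of the genes tested. In human, GPX1, GPX4 and TXN have processed pseudogene copies, and how reads shared with such copies were counted is not given in the sources used here.

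GPX3, which is secreted and circulates in plasma, differed most between libraries. The gene (ENSSSCG00000036438, chromosome 16, 71980475 to 71989026) measured 32.7, 23.9, 105 and 7.51 FPKM in melatonin replicates 1 to 4, against 8.02, 9.96, 12.3 and 25.9 in control replicates 1 to 4. Melatonin replicates 1 to 3 and control replicate 4 formed the upper part of this range. Melatonin replicate 4 was the lowest of all 8 libraries in FPKM. With TMM factors applied control replicate 1 was the lowest, at 7.88 against 8.68 in melatonin replicate 4. Means were 42.2 ± 42.9 FPKM after melatonin and 14.1 ± 8.12 in controls, and the spread of GPX3 within groups was higher than in 98.0% of the genes tested.

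The log2 fold change of GPX3 was 1.40 ± 0.62, with a 95% interval of 0.01 to 2.78 (edgeR unadjusted p = 0.0485, adjusted p = 0.473). DESeq2 gave an unadjusted p of 0.0547. Without melatonin replicate 3 the fold change was 0.54 (unadjusted p = 0.281 in edgeR), and without melatonin replicates 1 and 3 together it was 0.26. The unadjusted p in edgeR also exceeded 0.05 without melatonin replicate 1 or control replicate 1, 2 or 3. Without melatonin replicate 4 it was 1.73 (edgeR adjusted p = 0.133, the lowest over the alternatives, which reached 0.968). GPX3 took 25.9, 28.2, 58.9 and 11.5% of the summed FPKM of GPX1, GPX3 and GPX4 in melatonin replicates 1 to 4, against 9.25, 13.9, 12.9 and 25.6% in control replicates 1 to 4. It exceeded GPX1 only in melatonin replicate 3.

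**Figure D3:**
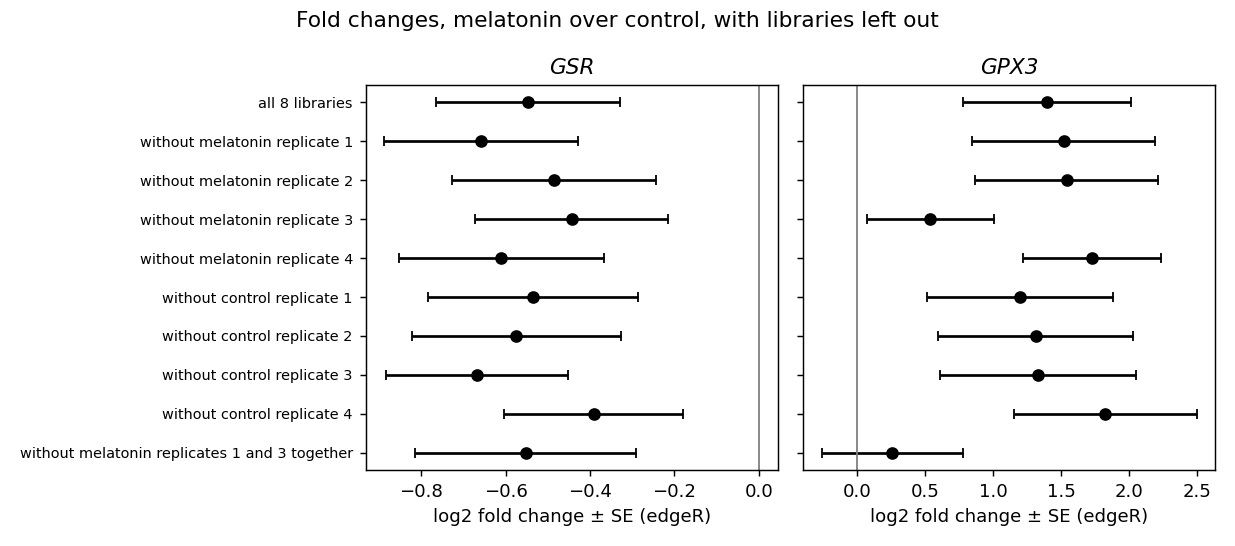
Log2 fold changes of GSR and GPX3, melatonin over control, from edgeR with all 8 libraries and with libraries left out, as points with the SE as bars. GSR stays between -0.67 and -0.39, and GPX3 lies at 0.54 without melatonin replicate 3 and at 0.26 without melatonin replicates 1 and 3.

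Markers of other cell types moved with GPX3 in some libraries. Summed FPKM of 11 macrophage markers, of which MARCO was at 0 in some libraries, was 62.0, 52.0, 78.3 and 18.6 in melatonin replicates 1 to 4, set against 49.0, 25.0, 20.7 and 52.6 in control replicates 1 to 4. In FPKM the 4 highest sums fell in the same 4 libraries and in the same order as the 4 highest GPX3 values. With TMM factors applied, GPX3 was at 25.9 in melatonin replicate 2 and 25.4 in control replicate 4, which turns their order. Control replicate 1 had a macrophage sum of 49.0 with GPX3 at only 8.02 FPKM. By edgeR's log2 fold changes 6 of the 7 macrophage markers tested lay above 0, against 49.8% of all genes. The adjusted test was passed by 0 of 7, and the median was 0.45. The macrophage scavenger receptor CD163 averaged 3.32 FPKM after melatonin and 1.31 in controls. LYVE1, of vessel-associated macrophages and lymphatic endothelium, averaged 2.10 FPKM after melatonin and 0.415 in controls (log2 fold change 2.14 ± 0.69). LYVE1 was the 1 marker of the 7 at an unadjusted p under 0.05 in edgeR, against 6.67% of all genes on the higher side.

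Adipocytes also express GPX3. Summed FPKM of 10 adipocyte markers, with LEP and ADRB3 at 0 in some libraries, was 316, 121, 293 and 43.7 in melatonin libraries, against 92.0, 52.3, 199 and 66.2 in controls. In the adipokine ADIPOQ the values were 77.6, 21.7, 50.7 and 1.03 FPKM after melatonin, against 0.990, 1.57, 30.4 and 2.27 in controls. Control replicate 3 had the highest adipocyte sum of the controls with GPX3 at 12.3 FPKM, and control replicate 4 had GPX3 at 25.9 FPKM with an adipocyte sum of 66.2. The fibroblast sum was highest in melatonin replicate 1, at 8503, where GPX3 was 32.7 FPKM, and next highest in melatonin replicate 3, at 2545, where GPX3 was 105 FPKM. Of the 9 fibroblast markers 8 lay above 0 (median 0.80), against 49.8% of all genes. In edgeR 5 had an unadjusted p under 0.05 on the higher side, where 6.67% of all genes lay. These were the collagens COL1A1 and COL1A2, and DCN, FBN1 and PDGFRA, which were named after their values were seen. Without melatonin replicates 1 and 3 the median was 0.12 for fibroblast markers, -0.07 for adipocyte markers (1.24 with all libraries) and 0.06 for macrophage markers. The part of these cell types in the GPX3 result was not tested.

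**Figure D4:**
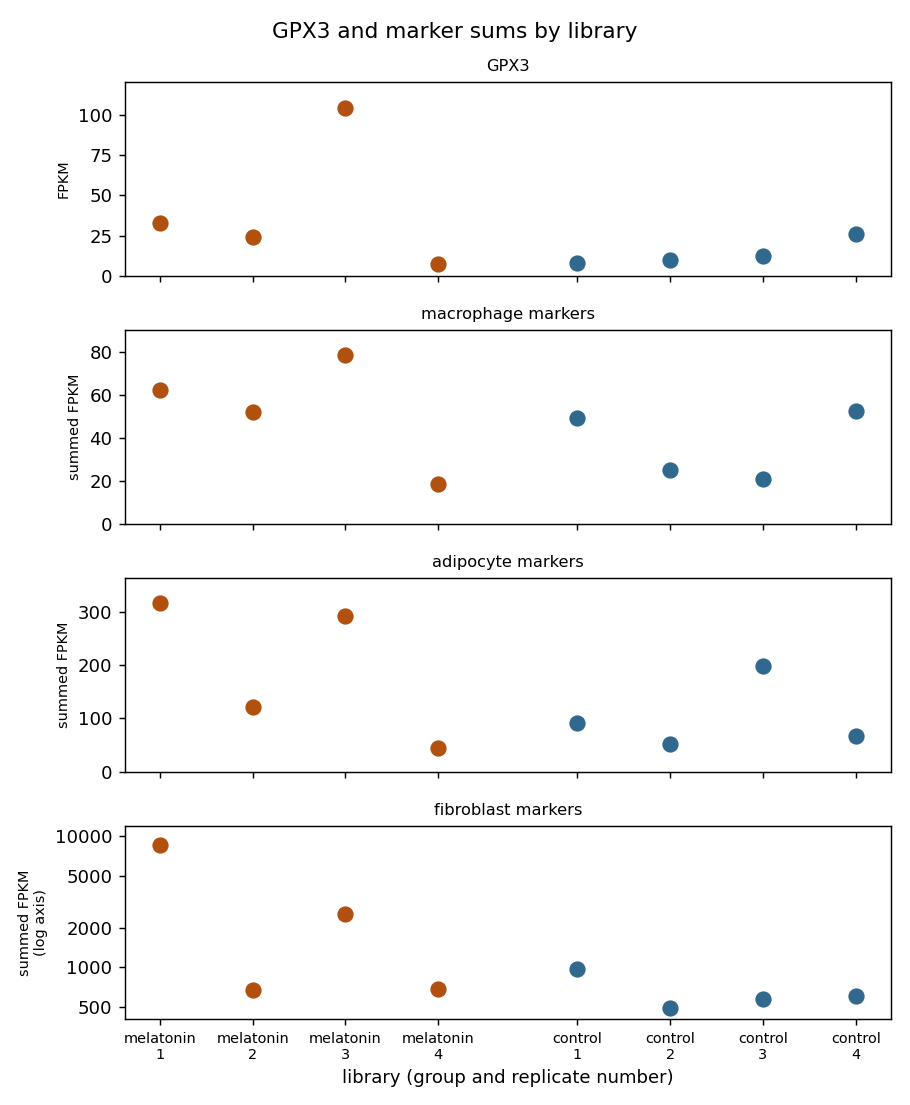
GPX3 in FPKM and summed FPKM of the macrophage, adipocyte and fibroblast markers in each library, melatonin on the left and control on the right, with a log axis for fibroblasts. The macrophage sum and GPX3 share their 4 highest libraries, melatonin replicates 3 and 1, control replicate 4 and melatonin replicate 2. Control replicate 1 has a macrophage sum of 49.0 with GPX3 at 8.02 FPKM.

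The wider pathway was described by lists, of which 0 genes passed the adjusted test in edgeR or in DESeq2. Counts below 0 in these lists stand against 50.2% of all genes tested. Genes at an unadjusted p under 0.05 in edgeR stand against 3.84% of all genes on the lower side and 6.67% on the higher side. Of 15 tested genes (21 listed) of glutathione synthesis and turnover 11 lay below 0 (median log2 fold change -0.06), and GSR was the only one at an unadjusted p under 0.05. With the 9 genes left out, 7 of 11 lay below 0 (median -0.04). Of the others, GGT5, an extracellular enzyme that cleaves glutathione conjugates, averaged 1.93 FPKM after melatonin and 1.10 in controls, and LAP3, a leucine aminopeptidase, averaged 25.9 FPKM after melatonin and 22.1 in controls. Of 6 tested glutathione peroxidases (8 listed) 4 lay below 0 (median -0.15), and of the 3 outside the 9 genes 2 did (median -0.45). GPX7 of the endoplasmic reticulum averaged 8.48 FPKM after melatonin and 5.35 in controls. Its log2 fold change of 0.52 was 0.06 without melatonin replicates 1 and 3 together. The related GPX8 averaged 10.0 FPKM after melatonin and 12.8 in controls. GPX2, named after its values were seen, ranged from 0.472 to 8.58 FPKM after melatonin and from 1.65 to 19.6 in controls, but overlaps CHURC1 (48.0 FPKM) on the opposite strand.

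Of 7 tested glutathione transferases (19 listed) 4 lay below 0 (median -0.11). The membrane-bound MGST1 averaged 3.64 FPKM after melatonin and 1.79 in controls, and the omega-class GSTO1 averaged 18.3 FPKM after melatonin and 21.1 in controls. In the thioredoxin and glutaredoxin system 11 of 14 tested (15 listed) lay below 0 (median -0.17). With the 9 genes left out it was 9 of 12 (median -0.18). GLRX5, a mitochondrial glutaredoxin of iron-sulfur cluster assembly, averaged 2.77 ± 0.292 FPKM after melatonin and 3.75 ± 1.11 in controls. Its log2 fold change of -0.50 ± 0.20 had an unadjusted p of 0.0349 and an adjusted p of 0.461 in edgeR, and was -0.30 without control replicate 1, the highest library at 5.36 FPKM. The mitochondrial pair TXN2 and TXNRD2 had log2 fold changes of -0.24 and -0.28.

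TXNIP, which binds thioredoxin and blocks it, measured 514, 372, 474 and 220 FPKM in melatonin replicates 1 to 4, against 286, 192, 195 and 366 in control replicates 1 to 4. The 4 highest libraries were the same as for GPX3. Its log2 fold change was 0.50 ± 0.24 (edgeR unadjusted p = 0.0688, adjusted p = 0.496). The transcription factor gene NFE2L2 measured 18.2, 17.7, 21.9 and 9.23 FPKM after melatonin, against 13.4, 9.04, 15.0 and 18.5 in controls, again with those 4 libraries on top. This set of 4 libraries was noticed after the values were seen. Over all genes tested, 9.36% had it on top in FPKM, and 4.01% with TMM factors applied, GPX3, TXNIP and NFE2L2 among them on both scales.

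Among 15 tested NRF2 regulators (16 listed) 9 lay below 0 (median -0.11, and 0.01 without melatonin replicates 1 and 3). For NFE2L2 itself the fold change was 0.17 ± 0.22 on the log2 scale (edgeR adjusted p = 0.788). Its inhibitor KEAP1 averaged 27.5 ± 2.28 FPKM after melatonin and 32.2 ± 8.10 in controls (-0.29 ± 0.19), and its fold change was -0.13 without control replicate 4, the highest library at 44.3 FPKM. BACH1, a repressor that competes for the same DNA element, measured 3.77, 3.80, 3.40 and 1.37 FPKM after melatonin, against 2.09, 1.78, 1.94 and 2.11 in controls. Melatonin replicates 1 to 3 lay above all controls and melatonin replicate 4 below all of them, and the fold change was 0.53 ± 0.25 on the log2 scale (edgeR adjusted p = 0.485). It was 0.33 without melatonin replicate 2 and 0.74 without melatonin replicate 4 (edgeR adjusted p = 0.0689). The kinase gene GSK3B, a negative regulator of NRF2, averaged 2.69 FPKM after melatonin and 3.30 in controls (-0.37, edgeR unadjusted p = 0.0410) and was the only regulator under 0.05.

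Of 22 tested NRF2 targets (26 listed) 16 lay below 0, with a median of -0.14, and the 17 that are not among the 9 genes had a median of -0.13. Unadjusted p was under 0.05 for 3, all on the lower side, against 3.84% of all genes on that side: GSR, OSGIN1 and FTH1. OSGIN1, an oxidative stress induced growth inhibitor, averaged 2.01 ± 0.524 FPKM after melatonin and 3.39 ± 1.24 in controls (-0.82 ± 0.31, edgeR unadjusted p = 0.0245, adjusted p = 0.453). FTH1, the ferritin heavy chain that stores iron, measured 769, 533, 658 and 673 FPKM after melatonin, against 1074, 689, 723 and 900 in controls. In FPKM, melatonin replicate 1 alone exceeded any control, namely control replicates 2 and 3. With TMM factors applied, melatonin replicate 4 alone did, at 778 against 717 in control replicate 3. The log2 fold change of FTH1 was -0.44 ± 0.18 (edgeR unadjusted p = 0.0353, adjusted p = 0.461). The light chain FTL averaged 254 FPKM after melatonin and 222 in controls (0.08). NQO1, a quinone reductase and a classical NRF2 target, averaged 11.4 ± 4.50 FPKM after melatonin and 16.0 ± 4.23 in controls (-0.53 ± 0.35). With 1 library left out the NQO1 fold change ran from -0.96 without melatonin replicate 4 (edgeR unadjusted p = 0.00718, not past the adjusted threshold) to -0.32 without melatonin replicate 3. Without melatonin replicates 1 and 3 together it was -0.11. SRXN1, sulfiredoxin, had a log2 fold change of 0.02 ± 0.49, whose sign turned in 7 alternatives. The unadjusted p of OSGIN1, FTH1, GLRX5 and GSK3B exceeded 0.05 in edgeR when some single libraries were left out.

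**Figure D5:**
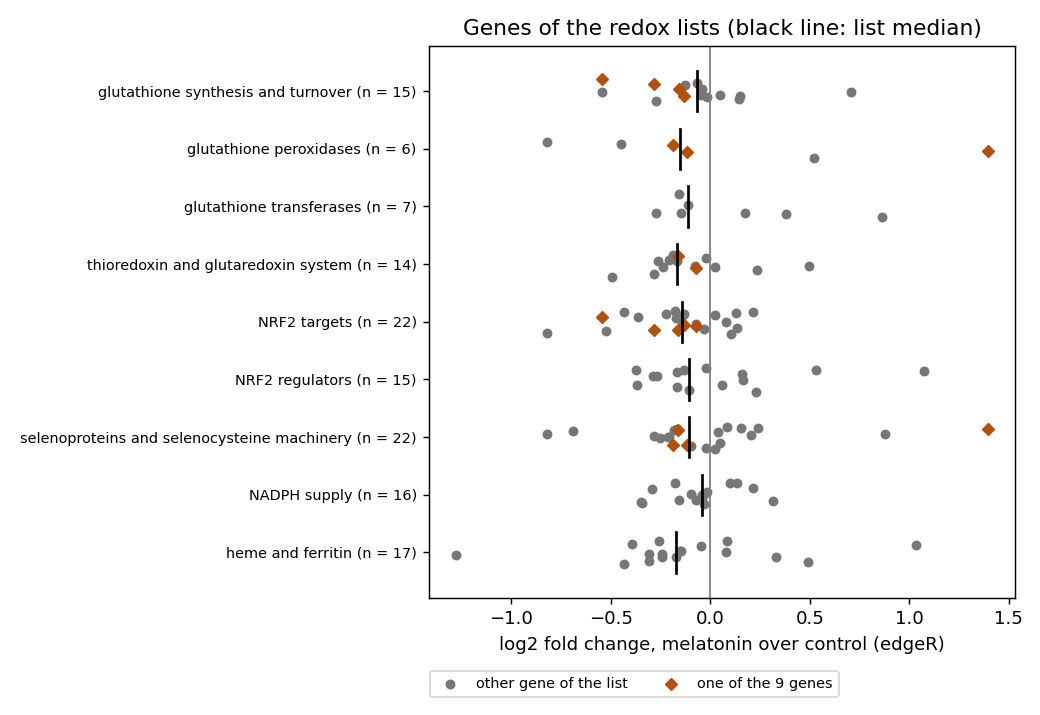
Log2 fold changes from edgeR, melatonin over control, for each tested gene of the 9 redox lists, with the 9 genes as diamonds, other genes as circles and the list median as a black line. Medians run from -0.17 to -0.04, and single genes spread on both sides of 0.

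The remaining lists gave the setting of these genes. Of 22 tested selenoproteins and genes of the selenocysteine machinery (30 listed) 13 lay below 0 (median -0.11), against 50.2% of all genes. In edgeR 2 had an unadjusted p under 0.05 on the higher side, GPX3 and SEPSECS, against 6.67% of all genes on that side. Of the 18 outside the 9 genes 10 lay below 0 (median -0.06) and 1 had such a p. SEPSECS makes the selenocysteine on its transfer RNA and averaged 1.74 FPKM after melatonin and 0.864 in controls (0.88 ± 0.32, edgeR unadjusted p = 0.0208, adjusted p = 0.446). It overlaps PI4K2B (1.32 FPKM) on the opposite strand. The methionine sulfoxide reductase MSRB1 averaged 11.0 FPKM after melatonin and 17.5 in controls, with control replicate 4 the lowest library in FPKM at 7.82. Of 16 tested genes that supply NADPH (18 listed) 12 lay below 0 (median -0.04). IDH2, the mitochondrial NADP isocitrate dehydrogenase, averaged 156 ± 12.7 FPKM after melatonin and 190 ± 34.1 in controls (-0.35 ± 0.15, edgeR unadjusted p = 0.0442), and NNT, the mitochondrial transhydrogenase, averaged 26.8 FPKM after melatonin and 32.7 in controls.

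In heme and ferritin metabolism 12 of 17 tested (20 listed) lay below 0 (median -0.17), against 50.2% of all genes, and 3 had an unadjusted p under 0.05. These were FTH1 and TFRC on the lower side (3.84% of all genes) and SLC40A1 on the higher side (6.67% of all genes). FTH1 is also counted among the NRF2 targets. SLC40A1, the iron exporter ferroportin, measured 5.36, 4.07, 6.07 and 1.70 FPKM after melatonin, against 2.49, 1.26, 2.06 and 1.89 in controls (1.04 ± 0.28, edgeR adjusted p = 0.440, DESeq2 adjusted p = 0.0628). Melatonin replicates 1 to 3 lay above all controls. It passed in edgeR only without melatonin replicate 4 (adjusted p = 0.0461, against up to 0.952 in the other alternatives). TFRC, the transferrin receptor, named after its values were seen, ranged from 5.00 to 7.43 FPKM after melatonin and from 4.26 to 34.6 in controls, with control replicate 1 the highest. Macrophages that recycle iron express ferroportin, and the macrophage sum was also higher in melatonin replicates 1 to 3, at 52.0 to 78.3, than in melatonin replicate 4, at 18.6, with controls at 20.7 to 52.6. Their part in this result was not tested. Of 2 tested erythroid markers, HBB and ALAS2, 2 lay below 0 (median -0.75), with 0 at an unadjusted p under 0.05 in edgeR. Of 10 endothelial markers 8 lay below 0 (median -0.05), the receptor gene TEK alone had an unadjusted p under 0.05 (log2 fold change 0.43), and TIE1 was at -0.37. Of 10 muscle fibre markers 8 lay below 0 (median -0.18, and 0.16 without melatonin replicates 1 and 3), with MYH2 at 0.57 and TNNT3 at -0.28.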

How the data were processed

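Per the labels' protocols, the RNA-seq libraries held poly(A) RNA and their second strand carried dUTP. The deposited table gives a whole-number count and an FPKM value per gene and library, per the file headers. The submitters' processing notes list Sscrofa11.1 as the build and DESeq2, FastQC and StringTie as tools. No aligner, annotation release or strand setting is named in them. The members and gene lists were chosen with earlier results of these data known. Genes at a mean of at least 1 FPKM (9821) were tested on counts with the legacy quasi-likelihood F test of edgeR 4.0.16 under R 4.3.3, after TMM scaling, without a covariate and with Benjamini-Hochberg adjustment over all of them at 0.05. The SE is the fold change divided by the root of F, and the common biological coefficient of variation was 28.0%. The code was tested on simulated data. The alternatives used limma 3.58.1, DESeq2 1.42.0, other scalings and filters, a replicate block and libraries left out. Named are the 9 genes, fixed regulators and relatives (of which SELENOP was not analysed here), and of each list the 2 other genes with the smallest unadjusted p, since none passed. Of 213 list symbols 187 had a row. No pair of libraries was a duplicate (lowest chi-square per degree of freedom 53.2). That closest pair crossed the groups, melatonin replicate 4 with control replicate 2, and the closest pair within a group was at 64.4. Summaries and plots used Python 3.11.15, pandas 2.3.3, NumPy 2.4.6 and Matplotlib 3.10.9.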

Additional observations from a re-analysis of the deposited data

Results flagged for a closer look

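In 94 groups of 4 libraries, 6 held a library far from the other 3 in FPKM. The rule flags about 1 in 20 by chance for independent, normally distributed values. FPKM values of genes from the same 8 libraries are not independent, so the chance rate for these data is not known. KEAP1 was at 44.3 FPKM in control replicate 4, against 27.5 to 29.1 in the other controls. BACH1 was at 1.37 FPKM in melatonin replicate 4, against 3.40 to 3.80 in the other melatonin libraries. GPX8 was at 16.6 FPKM in melatonin replicate 1, against 7.67 to 7.95 in the others. The beta-globin gene HBB was at 97.9 FPKM in melatonin replicate 3, against 37.2 to 39.8 in the other melatonin libraries. The adipocyte genes ADIPOQ and PLIN1 were at 30.4 and 9.04 FPKM in control replicate 3, against at most 2.27 and 0.670 in the other controls. None of the 9 glutathione and thioredoxin genes held such a library in either group.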

How the results depend on the processing

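None of the 9 genes passed the adjusted test under any of the 19 alternatives, and of 168 fold changes so recomputed 162 kept their sign. The exceptions were TXN, at 0.0037 by limma on log2(FPKM + 1), 0.0046 by voom with library weights and up to 0.037 with a library left out, and GCLM at 0.0046 without control replicate 4. Among the other named genes SRXN1 turned to -0.13 by voom with library weights and to -0.58 without melatonin replicates 1 and 3 together. Without those 2 libraries FTL was at -0.22 and MGST1 at -0.16. With 1 library left out SRXN1 ran from -0.23 to 0.33, FTL from -0.073 to 0.22, TXN from -0.18 to 0.04 and GCLM from -0.41 to 0.0046. DESeq2 called 65 of all genes where edgeR called 0, and leaving out 1 library gave 0 to 15, the 15 without melatonin replicate 4. Genes at an unadjusted p under 0.05, 1032 in edgeR, were 557 and 543 by limma with a pseudocount of 1 and 0.1, 1617 by voom with library weights, 1789 with no filter, 434 with a filter at a mean FPKM of 5, 474 without melatonin replicates 1 and 3 together and 568 to 1882 with 1 library left out. Of the 9 genes, those under it were 2 in edgeR, 1 in DESeq2 (GSR), 0 in both limma fits, 0 with the filter at 5, which removes GSR, 0 without melatonin replicates 1 and 3 together and 0 to 2 with 1 library left out. With the replicate number as a block the count of members was 1 (GSR), GPX3 was at 1.17 and SRXN1 at -0.079. The labels do not say whether the numbers pair the libraries. Deviations of same-numbered libraries correlated at 0.18, 0.07, 0.17 and -0.03, against -0.24 to 0.30 for other pairs across the groups. Of the 4 melatonin libraries 2 matched their own number best, and so few libraries cannot decide on pairing. With at least 293 counts per library for each member, counting error was small beside the common biological coefficient of variation of 28.0%. That value is taken over all genes tested. The SD within groups on the log2 scale was only 0.11 for GSS and 0.073 for GPX4, where counting error can be a larger part. The causes were not tested.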
